A study of Homo sapiens with 25 samples.

Results

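The 6 H3K4 methylation libraries of NB4 cells kept for 24 h with retinoic acid (RA) at 0.01 µM or with the solvent DMSO are described here, 1 library for each of H3K4me1, H3K4me2 and H3K4me3 in each condition. They were taken by antibody and treatment label from a series of 25 samples, 23 of which had a list of peaks. NB4 is an established human line of acute promyelocytic leukemia. Both groups were cultures of this 1 line and neither received MC_2580, the LSD1 inhibitor used elsewhere in the series. All measurements were chromatin immunoprecipitation with sequencing (ChIP-seq), in the form of the authors' called peaks on the hg18 build. The H3K27ac lists of both conditions, the LSD1 list of DMSO cells and the GFI1 list of untreated cells served as further readouts. With 1 library per group no difference could be set against a replicate spread, so every value describes these libraries, and no test between conditions was possible. The NB4 label was not checked against marker genes, because gene positions on hg18 were not used here.

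RA binds the retinoic acid receptor, a nuclear receptor that sits on DNA and switches from recruiting corepressors to recruiting coactivators. NB4 cells carry the fusion protein PML-RARA, which blocks granulocytic maturation, and RA releases that block. Methylation of lysine 4 of histone H3 is written by the KMT2 family of methyltransferases. H3K4me1 spreads over enhancers and the flanks of promoters, H3K4me2 covers both kinds of element, and H3K4me3 is concentrated at promoters. LSD1 (KDM1A) removes the mono- and dimethyl forms of H3K4, and GFI1 is a repressor that brings LSD1 to DNA.

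The lists had 60844 H3K4me1 peaks with RA and 57630 in DMSO, 39302 H3K4me2 peaks with RA and 40598 in DMSO, and 27712 H3K4me3 peaks with RA and 21688 in DMSO. Each peak carries the authors' own score, taken here as the -10 log10(p) that MACS writes, with values that start at 50 and pile up at 3100. Scores ranked or filtered peaks within a list, and a score in one list against a score in another shows no change. Sequencing depth is unknown, as no read numbers came with the lists. Peaks at 3100 or more made up 0.201% of the H3K4me1 list with RA against 1.94% in DMSO, 25.02% of the H3K4me2 list with RA against 20.6% in DMSO, and 36.1% of the H3K4me3 list with RA against 30.6% in DMSO. These shares moved in the same direction as the number of bases under H3K4me1 and H3K4me3 peaks given next. The part of library quality or depth in the results was not tested. Shares come with 95% exact (Clopper-Pearson) intervals, in which counting error is the sole error covered.

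The first comparison asked where each mark appeared or disappeared with the low RA dose. The marks moved in opposite directions, with less of the genome under H3K4me1 peaks and more under H3K4me3 peaks, while H3K4me2 stayed nearest to its DMSO extent. H3K4me1 peaks covered 161 Mb with RA and 203 Mb in DMSO, a ratio of 0.793. H3K4me2 peaks covered 53.3 Mb with RA and 56.9 Mb in DMSO, a ratio of 0.937. H3K4me3 peaks covered 95.8 Mb with RA and 63.9 Mb in DMSO, a ratio of 1.499. The DMSO H3K4me3 list, at 21688 peaks, was shorter than every other H3K4me3 list of the series. The lists of the other treatments had 29872 peaks with MC_2580, 26271 with 1 µM RA and 26963 with MC_2580 and 0.01 µM RA. A short DMSO list and H3K4me3 gained with RA thus cannot be told apart, here and in the regions below. Of the RA peaks, 11.7% for H3K4me1, 14.3% for H3K4me2 and 29.2% for H3K4me3 shared no base with a DMSO peak of the same mark, and these are called gained. Of the DMSO peaks, 19.5% for H3K4me1, 19.7% for H3K4me2 and 3.97% for H3K4me3 shared no base with an RA peak, and these are called lost.

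Most of the H3K4me1 bases that went uncalled lay in peaks that were still there. H3K4me1 was called with RA alone over 15.7 Mb and in DMSO alone over 57.8 Mb. Of those 57.8 Mb, 39.1 Mb (67.8%) belonged to DMSO peaks that shared bases with an RA peak and 18.6 Mb to lost peaks. For H3K4me3 the excess was on the RA side, with 33.8 Mb called with RA alone against 1.90 Mb in DMSO alone. Of those 33.8 Mb, 18.8 Mb (55.7%) belonged to RA peaks that shared bases with a DMSO H3K4me3 peak and 14.97 Mb lay in gained peaks. H3K4me2 had 7.07 Mb with RA alone and 10.7 Mb in DMSO alone, so that it exchanged bases in both directions.

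**Figure D1:**
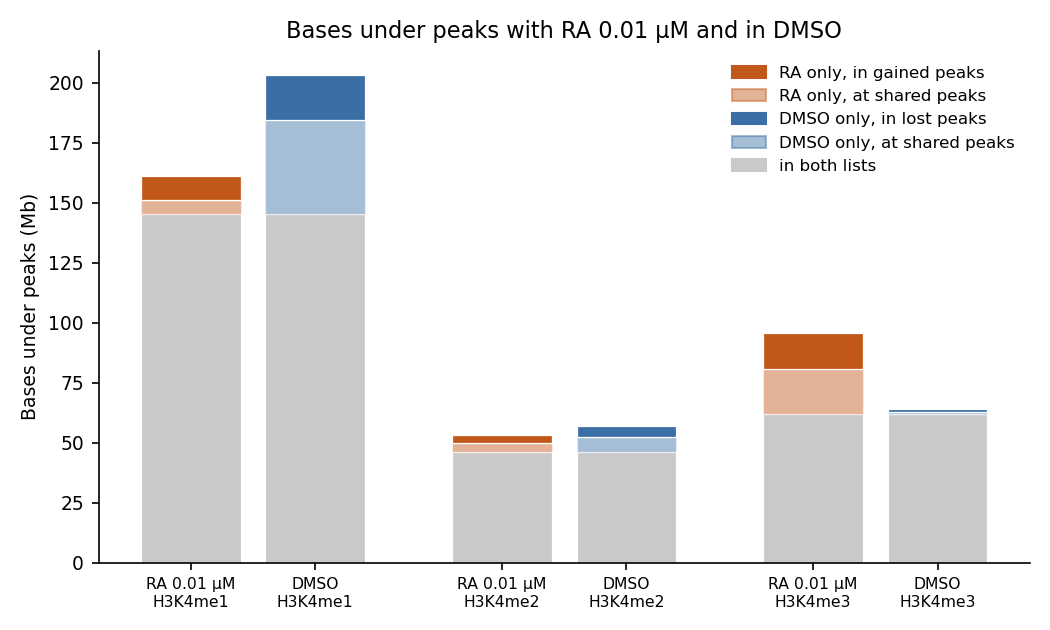
Bars give the bases under peaks in Mb for each mark, RA 0.01 µM beside DMSO, split into bases in both lists (grey), bases of 1 condition at shared peaks (pale) and bases in gained or lost peaks (dark). H3K4me1 covered 161 Mb with RA and 203 Mb in DMSO, and H3K4me3 covered 95.8 Mb with RA and 63.9 Mb in DMSO.

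Gained and lost peaks were mostly weak ones, and the few strong ones were more often gained than lost. The 7101 gained and 11223 lost H3K4me1 peaks had median scores of 72.7 in the RA list and 81.9 in the DMSO list. Gained H3K4me2 peaks had a median score of 72.8 in the RA list and lost ones 67.4 in the DMSO list. For H3K4me3 the 8101 gained peaks had a median score of 89.1 in the RA list and the 861 lost ones 61.6 in the DMSO list. Shared peaks stood far above these values, with a median of 3100 for H3K4me3 in the RA list and 889 in the DMSO list. Among H3K4me3 peaks scoring 50 to 100, 82.5% of the RA peaks were gained and 16.6% of the DMSO peaks were lost. Among H3K4me3 peaks at 3100 or more, 11 of 9997 RA peaks (interval 0.0549 to 0.197%) were gained and 0 of 6632 DMSO peaks were lost, which allows a share of up to 0.0556%. In H3K4me1 the weakest class was the one with the most losses, where 30.2% of the RA peaks were gained and 58.1% of the DMSO peaks were lost.

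**Figure D2:**
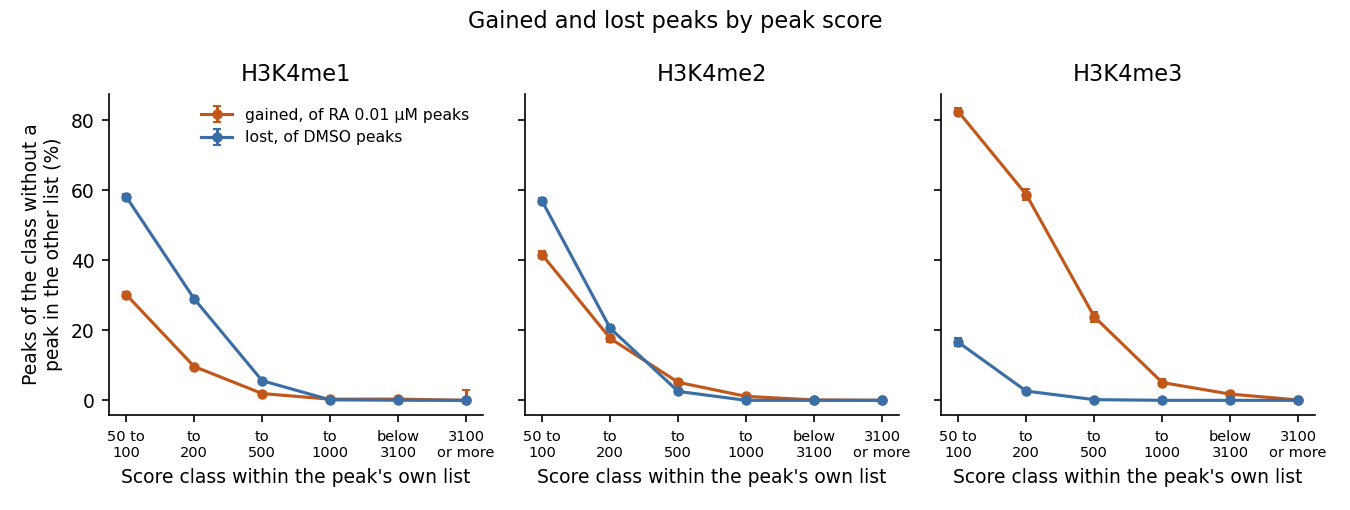
For each mark, points give the share of peaks in a score class without a peak in the other list, gained peaks as a share of the RA 0.01 µM list and lost peaks as a share of the DMSO list, with 95% exact binomial intervals. H3K4me3 gains lie above H3K4me3 losses in every class, from 82.5% against 16.6% in the weakest class to 11 of 9997 peaks against 0 of 6632 in the class at 3100 or more.

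A minimum score of 500 for the gained or lost peak, against any peak of the other list, was added after the data were seen. Above it were 37 gained and 16 lost H3K4me1 peaks, 40 gained and 0 lost H3K4me2 peaks, and 152 gained and 0 lost H3K4me3 peaks. For H3K4me1 this turned the direction, since the log2 ratio of gained over lost peaks was -0.66 over the whole lists and 1.21 above a score of 500. A 50% reciprocal overlap also turned it, to 0.22. With the same call rule as for the whole lists but a minimum score of 100 on the called peak, H3K4me2 had 1466 gained and 1478 lost peaks. The H3K4me3 log2 ratio was 3.23, and it fell to 0.72 (3169 gained, 1918 lost) when the RA list was cut by score to the length of the DMSO list. The H3K4me3 ratio of covered bases was 1.35 in that case.

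Shared peaks changed in width. Where 1 RA peak met exactly 1 DMSO peak, the pair gave a direct measure of the extent of a mark. The 37236 such H3K4me1 pairs had median widths of 2071 bases with RA and 2658 bases in DMSO, with a median log2 width ratio of -0.30, and 16.6% of the pairs were wider with RA. Both edges had moved inwards in 62.1% of them, and the median outward shift over all pairs was -227 bases at one edge and -219 bases at the other. The 18166 H3K4me3 pairs had median widths of 3266 bases with RA and 2565 bases in DMSO, with a median log2 ratio of 0.29, and 92.3% of the pairs were wider with RA. Both H3K4me3 edges had moved outwards in 74.4% of the pairs, by medians of 252 and 254 bases over all pairs. H3K4me2 pairs lay between, at a median log2 ratio of -0.05 with 40.5% wider with RA.

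The H3K4me3 widening was found at narrow and at broad domains. In the narrowest of 5 equal classes of DMSO width, 306 to 1467 bases, H3K4me3 peaks had a median log2 ratio of 0.55, or 516 bases more with RA. In the broadest class, 4256 to 27139 bases, the median log2 ratio was 0.23, or 978 bases more. The share of wider pairs lay between 90.3% and 94.5% across the 5 classes. H3K4me1 narrowed in each of its 5 classes, by median log2 ratios of -0.20 in the narrowest to -0.36 in the fourth. In H3K4me2 only the narrowest class was wider with RA, at a median log2 ratio of 0.13 against -0.06 to -0.09 in the other classes. The classes were cut by DMSO width, which is also the denominator of the ratio. A peak called too narrow in DMSO would thus fall in a narrow class and look wider with RA. The part of this in the differences between classes was not tested.

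**Figure D3:**
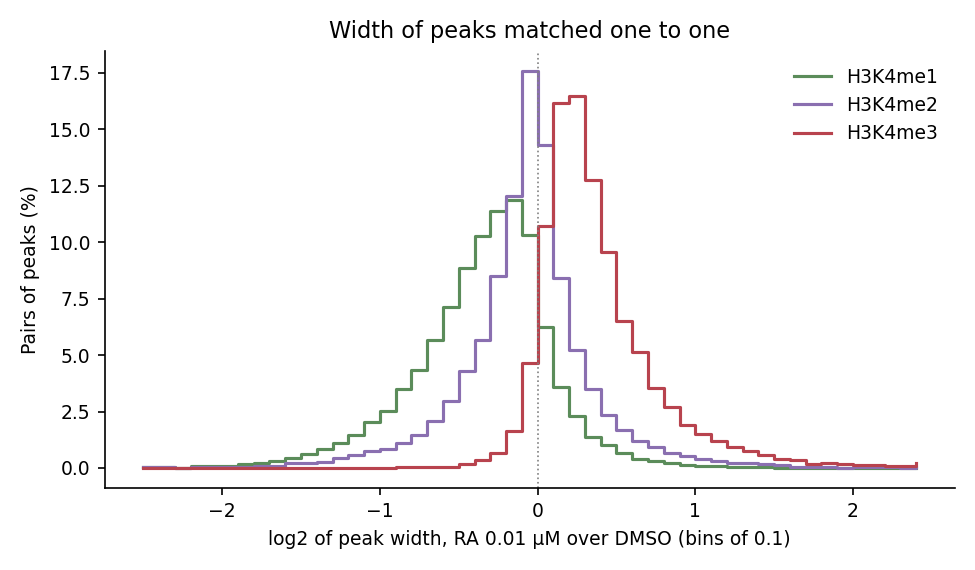
Lines give the share of peak pairs, matched 1 to 1, by the log2 of peak width with RA 0.01 µM over DMSO in bins of 0.1, and the first and last bins also hold the pairs beyond them. The H3K4me3 curve lies mostly right of 0 (median 0.29), the H3K4me1 curve mostly left of it (median -0.30) and the H3K4me2 curve around it (median -0.05).

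The other treatments of the series share the DMSO lists, so their values are set beside these without a comparison between them. Median log2 width ratios for H3K4me1 were 0.03 for MC_2580, -0.21 for the RA dose of 1 µM and -0.08 for MC_2580 given together with 0.01 µM RA. For H3K4me2 they were -0.02 for MC_2580, -0.10 for the higher RA dose and 0.04 for both agents. For H3K4me3 they were 0.33 for MC_2580, 0.19 for the higher RA dose and 0.16 for both agents, and in the last of these libraries the sample's title and its treatment field name different RA doses. All 4 H3K4me3 medians were above 0, and all 4 used the same DMSO library, so a narrow DMSO H3K4me3 library and a widening in each treatment cannot be told apart.

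H3K4me1 domains also broke up. In all, 1424 RA H3K4me1 peaks bridged more than 1 DMSO peak, against 7197 DMSO peaks that were split into more than 1 RA peak. H3K4me2 had 3017 bridging RA peaks and 3838 split DMSO peaks. H3K4me3 went the other way, with 1216 bridging RA peaks and 139 split DMSO peaks. The split H3K4me1 domains were broad, with a median width of 6349 bases, and the 8816 gaps opened in them had a median of 274 bases. An H3K4me3 peak overlapped 53.7% of the gaps with RA and 43.2% in DMSO. Measured in bases, H3K4me3 with RA covered 34.4% of the gaps and 50.5% of the split domains as a whole, so H3K4me3 was less frequent in the gaps than in the domains around them.

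Gained H3K4me3 peaks were not mainly fragments beside old ones. Their median distance to the nearest DMSO H3K4me3 peak was 19275 bases, and 22.9% lay within 5 kb. Gained H3K4me2 peaks lay closer to DMSO H3K4me2, at a median of 2887 bases. For H3K4me1 the gained peaks had a median distance of 6365 bases to the nearest DMSO peak, and the lost peaks 5798 bases to the nearest RA peak. Lost H3K4me3 peaks lay at a median of 12889 bases from the nearest RA H3K4me3 peak. The DMSO lists differed in length, with 21688 H3K4me3, 40598 H3K4me2 and 57630 H3K4me1 peaks. The part of list density in these distances was not tested. The excess of H3K4me3 gains was spread over the chromosomes, with log2 ratios of gained over lost peaks between 2.59 on chromosome 11 and 4.23 on chromosome X among 23 chromosomes. H3K4me1 had more losses than gains on all 23, with ratios of -1.43 on chromosome 19 to -0.15 on chromosome 12. For H3K4me2, 1 of the 23, chromosome 19, had slightly more gains than losses, at 0.03.

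The marks were then joined by region. The 6 lists merged into 67464 regions with a median width of 2320 bases, and each region was given the set of marks called in it with RA and in DMSO. The set differed in 29884 regions, which is 44.3%. Gains alone were seen in 15071 regions, losses alone in 14037 and both in 776. A single mark made the difference in 28019 of the changed regions, 2 marks in 1791 and all 3 in 74. Regions with H3K4me3 but no H3K4me1 or H3K4me2 numbered 4606 with RA and 1600 in DMSO. Regions with H3K4me1 and H3K4me3 but no H3K4me2 numbered 2182 with RA and 585 in DMSO, and those with H3K4me1 and H3K4me2 but no H3K4me3 numbered 4155 with RA and 6734 in DMSO.

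Regions that had all 3 marks in DMSO, a pattern usual at promoters, kept their set of marks most often, and regions with H3K4me1 and H3K4me2, a pattern usual at enhancers, least often. This order is by number of regions: counted in bases, all 3 marks were kept over 75.2% of their DMSO extent, below the 77.7% of H3K4me2 with H3K4me3 and the 77.0% of H3K4me3 alone. Of 16384 regions with all 3 marks in DMSO, 15196 (92.7%, interval 92.3 to 93.1%) had all 3 with RA, and 1 had none. Of 27825 regions with H3K4me1 alone in DMSO, 16401 (58.9%) still had H3K4me1 alone with RA and 8653 (31.1%, interval 30.6 to 31.6%) had no mark. Of 3255 regions with H3K4me2 alone, 1416 (43.5%) had no mark with RA. Of 1600 regions with H3K4me3 alone, 1178 (73.6%) were the same with RA. These differences between region types move with their size: kept regions with all 3 marks had a median width of 5971 bases, against 1527 bases for the H3K4me1 regions left without a mark. The part of size and signal strength was not tested.

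**Figure D4:**
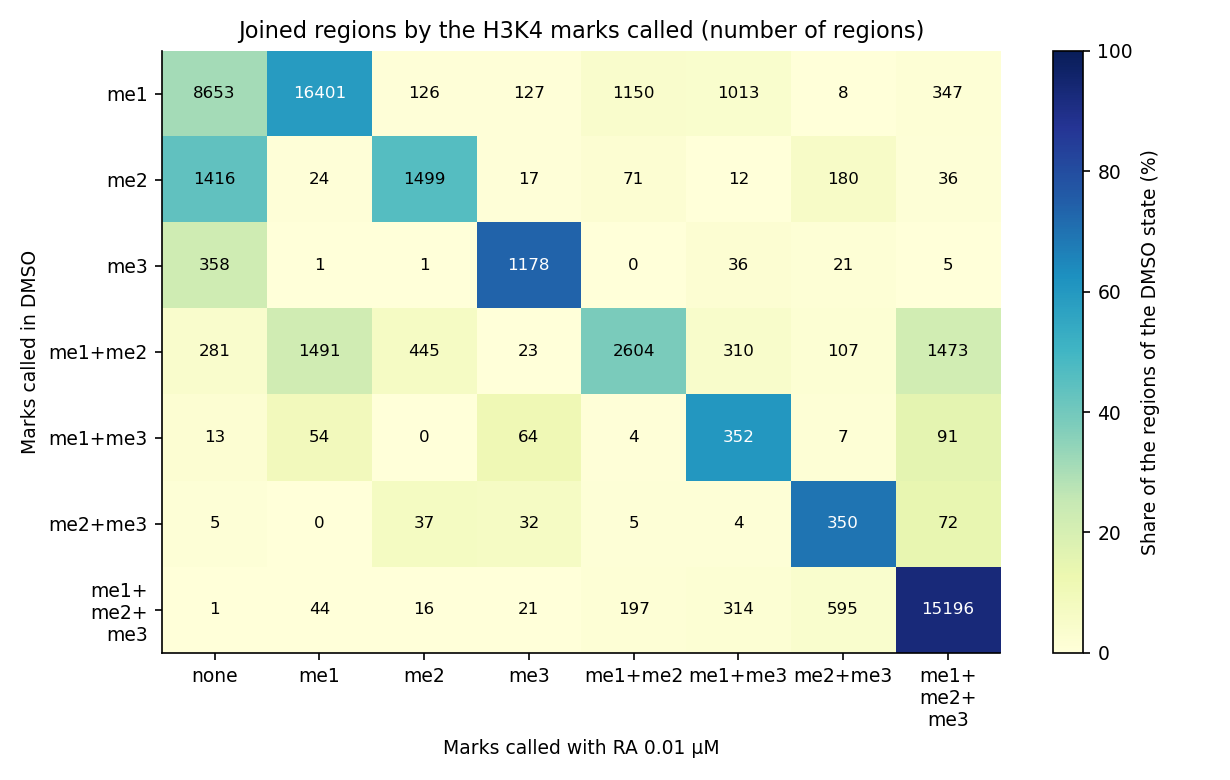
Each cell gives the number of joined regions with a set of marks in DMSO (down the side) and with RA 0.01 µM (along the bottom), shaded by its share of the DMSO row. The cell for all 3 marks in both conditions holds 15196 regions (92.7%), and 1473 regions (21.9%) with H3K4me1 and H3K4me2 in DMSO had all 3 marks with RA.

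Among regions with a mark but no H3K4me3 in DMSO, H3K4me3 was added most often where H3K4me1 and H3K4me2 were together. Of 6734 such regions in DMSO, 1473 (21.9%, interval 20.9 to 22.9%) had all 3 marks with RA, 2604 (38.7%) kept H3K4me1 and H3K4me2, and 1491 (22.1%) had H3K4me1 alone. The share was 12.1% when the longer list of each mark was cut to the length of the shorter. The reverse, H3K4me1 and H3K4me2 with RA where DMSO had all 3 marks, was seen in 197 regions (1.20%). From H3K4me1 alone, 1150 regions (4.13%) added H3K4me2, 1013 (3.64%) added H3K4me3 and 347 (1.25%) added both.

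H3K4me2 was added more often where H3K4me3 was added too. Among the 1495 regions with H3K4me1 alone in DMSO that had H3K4me3 with RA, 23.7% also had H3K4me2 with RA. Among the 26330 without H3K4me3 with RA the share was 4.85%. The first set was broader, with a median of 3252 bases against 2064 bases. In regions of 2000 to 5000 bases, a range chosen after the data were seen, the shares were 22.3% and 6.48%. In regions with all 3 marks in DMSO, H3K4me2 was lost in 17.4% of the 258 that lost H3K4me3 and in 2.08% of the 16126 that did not. The 258 were narrower, with a median of 4124 bases against 5757.5 bases. The part of width and peak score in this difference was not tested.

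In bases, new H3K4me3 lay chiefly on H3K4me1. Of the 33.8 Mb under H3K4me3 with RA alone, 18.7 Mb (55.4%) had carried H3K4me1 without H3K4me2 in DMSO, 10.5 Mb (31.1%) had carried neither, 4.19 Mb (12.4%) both, and 0.384 Mb (1.14%) H3K4me2 alone. Bases under H3K4me1 in DMSO but not with RA were mostly unmarked with RA: of 57.8 Mb, 46.4 Mb (80.4%) had none of the 3 marks with RA. A further 5.59 Mb (9.68%) had H3K4me3, 4.91 Mb (8.51%) had H3K4me2 and H3K4me3, and 0.832 Mb (1.44%) had H3K4me2.

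Of gained H3K4me3 peaks, 55.1% (54.0 to 56.2%) lay on H3K4me1 of DMSO and 32.5% on H3K4me2 of DMSO, against 91.1% and 90.1% of shared H3K4me3 peaks in the RA list. Among peaks of like score the gap was smaller, most of all for H3K4me1. At scores of 100 to 200, 60.03% of gained and 68.3% of shared peaks lay on H3K4me1 of DMSO, and 36.9% of gained and 63.0% of shared peaks on H3K4me2 of DMSO. At scores of 200 to 500, the shares on H3K4me1 were 70.6% of gained and 79.1% of shared peaks. Gained H3K4me2 peaks lay on H3K4me1 of DMSO in 79.7%, and 39.9% of them overlapped H3K4me3 with RA against 15.5% in DMSO. Lost H3K4me2 peaks overlapped H3K4me3 in 41.3% with RA and 31.8% in DMSO. Shared H3K4me2 peaks of the RA list did so in 80.6% with RA and 72.5% in DMSO. The H3K4me3 list was longer with RA, and the part of that in these shares was not tested. Lost H3K4me1 peaks overlapped H3K4me2 or H3K4me3 of the RA lists in 20.2%, a share that was 30.8% with a minimum score of 100 in every list and 38.9% with a 50% reciprocal overlap. The same lost peaks overlapped H3K4me2 or H3K4me3 of DMSO in 19.7%, so this overlap was nearly the same in both conditions. Of shared H3K4me1 peaks in the DMSO list, 54.6% overlapped H3K4me2 with RA and 51.0% overlapped H3K4me3 with RA. Regions with no mark in DMSO took up H3K4me1 alone in 6323 cases, H3K4me3 alone in 3144, H3K4me2 alone in 789 and all 3 marks in 30.

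Strong H3K4me3 gains lay on earlier H3K4me1 more often than H3K4me3 gains as a whole, and they were wider, with a median of 4018 bases against 1614 bases. Overlap with H3K4me1 of DMSO also rose with score among shared H3K4me3 peaks of the RA list, from 62.7% at 50 to 100 to 79.1% at 200 to 500. Of those shared peaks at all scores, 91.1% lay on H3K4me1 of DMSO and 90.1% on H3K4me2 of DMSO. The part of width and score in the shares of strong gains on earlier marks was not tested. Of the 152 gained H3K4me3 peaks scoring 500 or more, 136 (89.5%, interval 83.5 to 93.9%) lay on H3K4me1 of DMSO and 96 (63.2%) on H3K4me2 of DMSO. H3K27ac, the acetyl mark of active elements, was called at 129 (84.9%) of them with RA and at 100 (65.8%) in DMSO. The whole H3K27ac lists had 55793 peaks with RA and 32789 in DMSO, and the part of that difference in length was not tested. Of the 40 strong H3K4me2 gains, 33 (82.5%) overlapped H3K4me3 with RA and 0 did in DMSO, which allows a share of up to 8.81%. All 40 overlapped H3K4me1 with RA, and 36 overlapped it in DMSO. The 37 strong H3K4me1 gains had a median width of 5919 bases, and 16 of them overlapped H3K4me2 of DMSO and 13 H3K4me3 of DMSO.

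The regions that follow were taken by rank within each kind of change, and their scores name how each peak stood in its own list. The top region with all 3 marks with RA and none in DMSO lay on chromosome 16 from 65022683 to 65029575. Its scores with RA were 1914 for H3K4me1, 328 for H3K4me2 and 347 for H3K4me3. Neither LSD1 nor GFI1 had a peak there. The next lay on chromosome 22 from 34978378 to 34980404, with scores with RA of 152 for H3K4me1, 208 for H3K4me2 and 1012 for H3K4me3. In contrast to the region on chromosome 16, it also had all 3 marks with MC_2580, at scores of 89.8, 88.7 and 218. A region on chromosome 9 from 27690117 to 27694072 had RA scores of 597 for H3K4me1, 125 for H3K4me2 and 293 for H3K4me3, with no H3K27ac peak at this dose or in DMSO. A region on chromosome 11 from 120331849 to 120334181 had all 3 marks with RA at 0.01 µM, and there H3K4me3 was called at a score of 113 and in none of the other 4 conditions.

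The single region with no mark with RA and all 3 in DMSO was weak. It lay on chromosome 18 from 9063559 to 9064774, and its scores in DMSO were 93.2 for H3K4me1, 107 for H3K4me2 and 84.9 for H3K4me3. Of the 30 regions with all 3 marks with RA and none in DMSO, 18 had H3K27ac with RA and not in DMSO, 1 had it in both and 11 in neither. Of the 6323 new regions of H3K4me1 alone, 18.3% had H3K27ac with RA and not in DMSO. The H3K27ac list was longer with RA, and the part of that in these shares was not tested.

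The 5 top regions that added H3K4me3 to H3K4me1 and H3K4me2 all had H3K4me3 at 3100 with RA. They lay on chromosome 17 from 29583441 to 29610030 and from 22979780 to 22987870, on chromosome 5 from 115393639 to 115403982, on chromosome 20 from 23063720 to 23094668, and on chromosome 1 from 151594681 to 151600851. H3K4me3 was also called in all 5 with RA at 1 µM. With MC_2580 it was called in 4, at scores of 51.6 to 221, and the region on chromosome 5 had none. H3K27ac was called in all 5 with RA and in 4 of them in DMSO, at DMSO scores of 91.4 to 632. LSD1 had a peak in the regions on chromosome 20, at a score of 701, and on chromosome 17 from 29583441, at 1062, and in none of the other 3.

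The 5 top regions that lost H3K4me3 while keeping H3K4me1 and H3K4me2 were on chromosome 14 from 49595436 to 49602406, on chromosome 10 from 105363209 to 105373244, on chromosome 9 from 111228139 to 111230915, on chromosome 2 from 25656895 to 25660233 and on chromosome 20 from 61078623 to 61085747. Their H3K4me3 scores in DMSO were 202, 178, 170, 164 and 163. In 3 of the 5, those on chromosomes 14, 9 and 2, H3K27ac was not called with RA and was called in DMSO. Over all 197 regions of this kind that was so in 33 (16.8%), while 116 had H3K27ac in both conditions. Of the 15196 regions that kept all 3 marks, 3.28% had H3K27ac in DMSO alone. H3K27ac with RA alone was seen in 9.14% of the 197 and in 8.13% of the 15196. The 197 were narrower, with a median of 4350 bases against 5971 bases, and the part of width was not tested. LSD1 had a peak in 4 of the 5 top regions, at scores of 517 to 3100, and the region on chromosome 9 had none. H3K4me3 was called in all 5 with MC_2580.

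H3K4me1 alone also came and went at H3K4me2 and H3K4me3 regions. It was lost from 595 regions with all 3 marks in DMSO, the first on chromosome 1 from 149433929 to 149436060 with a DMSO H3K4me1 score of 415, and next on chromosome 10 from 93158018 to 93162458 with 414. Those 595 regions were narrow, with a median of 2206 bases, and H3K27ac was called at 51.3% of them with RA and 26.7% in DMSO. H3K27ac was called with RA alone in 26.1% of the 595 and in 8.13% of the 15196 regions that kept all 3 marks. The H3K27ac list was longer with RA, and the part of list length and region width in this was not tested. H3K4me1 was added to 72 regions, the first on chromosome 6 from 15400316 to 15423119 with an RA H3K4me1 score of 2320. That region had H3K27ac in DMSO at a score of 2936 but no H3K4me1 in DMSO, with MC_2580 or with both agents together. Second came chromosome 6 from 42515433 to 42531198, with an RA H3K4me1 score of 1804 and H3K4me2 and H3K4me3 at 3100 in all 5 conditions. DMSO was the 1 condition without an H3K4me1 peak there.

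Among regions with H3K4me1 alone, the strongest loss was on chromosome X from 147485298 to 147491582, at a DMSO score of 830, where H3K27ac at 1464 in DMSO was not called with RA either. On chromosome 22 from 45256121 to 45259638, a DMSO H3K4me1 peak of 828 over an LSD1 peak of 546 was not called with RA. The strongest new region of H3K4me1 alone lay on chromosome 6 from 15447845 to 15456702, at an RA score of 1207 and with none of the other marks in any condition. It neighboured the region on the same chromosome that added H3K4me1. Another pair of neighbours lay on chromosome 12, from 11847946 to 11858918 and from 11827022 to 11832061. H3K4me1 was called there with RA, at scores of 1614 and 821, and not in DMSO. Both already had H3K27ac in DMSO, at scores of 2360 and 1827.5. The first also had H3K4me2 at 289 and H3K4me3 at 180 in DMSO.

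Gained and lost peaks of the 3 marks were also counted in windows of 100 kb. At least 10 gained peaks fell in 53 windows and at least 10 lost peaks in 17. The window with the most gains, 19 with 0 losses, lay on chromosome 10 from 125700001 to 125800000. It held 7 H3K4me1 peaks with RA and 3 in DMSO, 9 H3K4me2 peaks with RA and 2 in DMSO, and 8 H3K4me3 peaks with RA and 0 in DMSO. The next had 17 gains and 1 loss on chromosome 14 from 92600001 to 92700000, where H3K4me2 had 18 peaks with RA and 9 in DMSO. The windows with the most losses were all on chromosome 17. From 76900001 to 77000000 there were 3 gains and 18 losses, from 35900001 to 36000000 there were 0 gains and 13 losses, and from 77000001 to 77100000 there was 1 gain and 13 losses. In the window from 35900001, H3K4me2 had 4 peaks with RA and 13 in DMSO, and H3K4me1 had 10 in each.

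LSD1 and GFI1 were read in cells without RA, so their peaks show where they sat before or without the treatment. The question was whether gained and lost methylation fell on these sites. The LSD1 list starts at a score of 234, against 50 in the GFI1 and histone lists, so weaker LSD1 sites are missing from it. Over the whole lists, both were scarcer under gained and lost peaks than under shared ones. LSD1 lay under 13.3% (12.6 to 14.1%) of gained H3K4me3 peaks against 36.6% (35.9 to 37.2%) of shared ones in the RA list, and GFI1 under 12% of gained against 35.1% of shared ones. For H3K4me1, LSD1 lay under 0.986% of gained and 23.6% of shared RA peaks, and under 3.07% of lost and 24.5% of shared DMSO peaks. With a minimum score of 100 in every histone list, the shares of gained H3K4me3 peaks were 21.0% for LSD1 and 18.1% for GFI1. Strong gains had them more often: of the 152 H3K4me3 gains scoring 500 or more, 41 had LSD1 (26.97%) and 46 had GFI1 (30.3%). Of the 37 strong H3K4me1 gains, 6 had LSD1 (16.2%, interval 6.19 to 32.0%) and 17 had GFI1 (45.9%, interval 29.5 to 63.1%). GFI1 lay under 23.7% of shared H3K4me1 peaks in the RA list. Those shared peaks, of all scores, had a median width of 2107 bases, against 5919 bases for the 37 gains. Their share with GFI1 rose with score, from 10.1% at 50 to 100 to 24.3% at 200 to 500. Shared peaks scoring 500 or more were not read on their own, so the shares of strong gains have no comparison at like score. The part of width and score in the shares of strong gains was not tested.

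**Figure D5:**
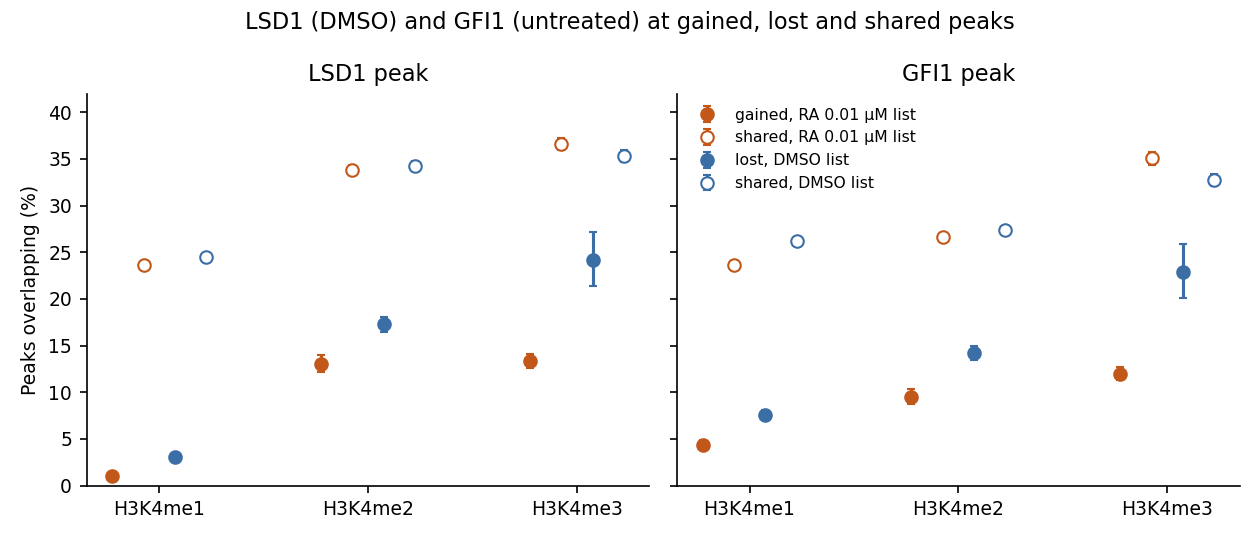
Points give the share of gained (filled) and shared (open) peaks of the RA 0.01 µM list and of lost (filled) and shared (open) peaks of the DMSO list that overlap an LSD1 or a GFI1 peak, with 95% exact binomial intervals. For each mark the filled points lie below the open ones, and among filled points lost H3K4me3 is highest, at 24.2% for LSD1.

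Since shared peaks are stronger, the shares were also taken within score classes, which were chosen with the data in view. Among H3K4me3 peaks scoring 100 to 200, LSD1 lay under 15.3% (13.9 to 16.8%) of 2369 gained and 25.7% (23.6 to 27.9%) of 1662 shared RA peaks, whose median widths were 1893 and 1827 bases. For H3K4me1 in that class the shares were 0.739% of gained and 13.8% of shared RA peaks. LSD1 lay under 4.16% (3.50 to 4.91%) of lost and 6.24% (5.71 to 6.79%) of shared DMSO H3K4me1 peaks of that class. At scores of 50 to 100 it lay under 2.00% of lost and 3.28% of shared ones. The gap at lost H3K4me1 peaks was thus smaller in these classes than over the whole lists. Of the 861 lost H3K4me3 peaks, 784 scored 50 to 100, and there LSD1 lay under 21.8% (19.0 to 24.9%) of lost and 23.1% (21.8 to 24.4%) of shared DMSO peaks, and GFI1 under 20.8% (18.0 to 23.8%) of lost and 18.7% (17.4 to 19.9%) of shared ones. In the class of 100 to 200, which held 72 lost H3K4me3 peaks, LSD1 lay under 34 of them (47.2%, interval 35.3 to 59.3%) and under 32.6% (30.8 to 34.4%) of shared DMSO peaks. GFI1 lay under 41.7% (30.2 to 53.9%) of lost and 27.02% (25.3 to 28.8%) of shared H3K4me3 peaks of that class. The excess at lost peaks was thus not seen in the class that holds most of them. Lost H3K4me2 peaks of that class had LSD1 in 25.04% (22.7 to 27.5%) and shared DMSO ones in 27.3% (26.1 to 28.5%).

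By region, LSD1 was more frequent where H3K4me3 came or went on H3K4me1 and H3K4me2 than in regions that kept the same DMSO marks. It had a peak in 60.9% (53.7 to 67.8%) of the 197 regions that lost H3K4me3 in this way, against 44.1% (43.3 to 44.9%) of regions that kept all 3 marks. The 197 regions were the narrower ones, with a median of 4350 bases against 5971 bases. GFI1 had a peak in 51.8% (44.6 to 58.9%) of the 197 against 43.3% of those that kept all 3. Regions that added H3K4me3 had LSD1 in 40.8% (38.3 to 43.4%), against 30.0% (28.2 to 31.8%) of those that kept H3K4me1 and H3K4me2, and their median widths were 4608 and 3495 bases. Regions that lost H3K4me1 from all 3 marks had LSD1 in 3.70% and GFI1 in 9.41%. New regions of H3K4me3 alone had LSD1 in 3 of 3144 (0.0954%), and H3K27ac with RA in 6.74%. The part of width and peak score in these differences was not tested.

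H3K27ac was also read at these regions. Of the 1473 regions that added H3K4me3 to H3K4me1 and H3K4me2, 17.2% had H3K27ac with RA alone and 8.83% in DMSO alone, against 19.7% and 6.95% of the 2604 regions that kept H3K4me1 and H3K4me2.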

How the data were processed

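Called peaks of 6 ChIP-seq libraries were compared, 1 per mark and condition. Per the submitters' processing notes, the tools were MACS 1.4.1, Bowtie 1.0.1, CASAVA 1.8, FastQC 0.10.0 and 0.11.5 and bcl2fastq 2, and the build was hg18, with no role or order given. Each deposited list gives position, peak name and a score per peak, as the authors' caller wrote it. NumPy 2.4.6 gave the overlaps, SciPy 1.17.1 the intervals and Matplotlib 3.10.9 the figures, all under Python 3.11.15. At least 1 shared base made peaks shared. Peaks of the 6 lists were merged for the regions. Regions named were ranked within each kind of state change by score (for gains or losses of all 3 marks, by the lowest of the 3), up to 5 or 3 each, and windows by their number of gained or lost peaks, 3 each; not every one is printed. The overlap code was tested on simulated data. The members, rules and lists were chosen with earlier results of these data known.

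Alternatives were lists of equal length, a minimum score of 100 in every histone list, a score of 100 needed on the called side alone (one-sided threshold), peaks joined across gaps of up to 1 kb, a reciprocal overlap of 50%, autosomes only and, for regions, bases in place of counts. The one-sided threshold of 500, the score classes and the range of region widths were added after the data were seen. Starts below 0 in H3K27ac lists were set to 0, and 1 of 29601 GFI1 peaks, off the standard chromosomes, was left out. No read numbers, and so no depth per sample, are given in the sources used here. Gene names, promoter windows and sequences need hg18 positions and were not used here.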

Additional observations from a re-analysis of the deposited data

How the results depend on the processing

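Of 76 values recomputed for 14 results, 25 stayed within their counting interval or, for covered bases, unchanged at 3 digits, 49 moved beyond it and 2 turned sign. The cause of the changes was not tested. No replicate could be left out with 1 library per group. No paired analysis was possible because each group has 1 library and the labels carry no replicate numbers. Unknown depth limits every count, since a longer list may come from a deeper library.

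The log2 ratio of gained over lost peaks turned for H3K4me1 (-0.66) to 0.22 with a 50% reciprocal overlap and to 1.21 with the one-sided threshold of 500, which gave no ratio for H3K4me2 (40 gained, 0 lost) or H3K4me3 (152 gained, 0 lost). It was -1.41 with a minimum score of 100, -0.51 with peaks within 1 kb joined, -1.12 with the one-sided threshold of 100 and -1.11 with lists of equal length. For H3K4me2 (-0.51) it was -0.17 with the minimum score, -0.15 with the reciprocal overlap, -0.012 with the one-sided threshold and -0.27 with equal lengths. For H3K4me3 (3.23) it was 4.68, 1.31, 5.46 and 0.72 in that order.

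The ratio of covered bases for H3K4me1 (0.793) was 0.758 with the minimum score, 0.802 with peaks joined, 0.777 with equal lengths and 0.794 on autosomes. For H3K4me2 (0.937) it was 0.945 with the minimum score, 0.940 with peaks joined and 0.947 with equal lengths, and for H3K4me3 (1.499) it was 1.35 with equal lengths.

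The share of H3K4me1 and H3K4me2 regions with all 3 marks after RA (21.9%) was 26.5% with the minimum score, 12.1% with equal lengths and 26.5% in bases. The share of H3K4me1 regions with no mark after RA (31.1%) was 29.4% with peaks joined, 34.2% with equal lengths and 33.8% in bases. The share of regions that kept all 3 marks (92.7%) was 89.3% with the minimum score, 90.0% with equal lengths and 75.2% in bases.

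Gained H3K4me3 peaks on DMSO H3K4me1 (55.1%) made up 62.2% with the minimum score, 59.3% with the reciprocal overlap, 64.1% with the one-sided threshold and 64.6% with equal lengths. Their shares with LSD1 (13.3%) were 21.0%, 18.0%, 17.2% and 17.4% in that order, and with GFI1 (12%) 18.1%, 16.4%, 15.2% and 15.5%. Gained H3K4me2 peaks on DMSO H3K4me1 (79.7%) made up 78.0% with the minimum score, 88.5% with the reciprocal overlap, 74.1% with peaks joined and 83.1% with the one-sided threshold. Lost H3K4me1 peaks on H3K4me2 or H3K4me3 of the RA lists (20.2%) made up 30.8%, 38.9%, 16.7% and 26.1% in that order.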
